A study of Mus musculus with 5 samples.

Results

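The 9 genes described here make, move or hold retinoids: Rbp4, Stra6, Rdh10, Aldh1a1, Aldh1a2, Aldh1a3, Cyp1b1, Crabp1 and Crabp2. They were taken by symbol from the 27998 genes shared by 5 tables of single-cell UMI counts (a UMI marks 1 captured transcript), and each table held all 9. The tables came from spinal cord cells picked by flow sorting on green fluorescence driven by Col1a1, a gene for a chain of type I collagen that fibroblasts use. All mice carried this Col1a1GFP reporter on a C57/BL6 background. Healthy 1, Healthy 2 and Healthy 3 came from healthy mice, and EAE 1 and EAE 2 from mice with experimental autoimmune encephalomyelitis (EAE), in which an immune attack on myelin inflames the cord. The sort keeps the cells in which the reporter is on, so cells of the cord with no reporter enter only as carry-over. No label gives age, sex or the number of animals per library. The p-values therefore cannot be taken to measure a spread between animals, and the spread between these libraries may be technical.

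Retinoic acid is made from vitamin A in steps that different cells can share. Retinol travels in blood and tissue fluid on the carrier Rbp4 and can enter cells through the membrane receptor Stra6. Rdh10 oxidises retinol to retinal, and the retinaldehyde dehydrogenases Aldh1a1, Aldh1a2 and Aldh1a3 oxidise retinal to retinoic acid. Cyp1b1 is a cytochrome P450 of the endoplasmic reticulum that metabolises oestrogens and polycyclic compounds and can also oxidise retinol and retinal. Crabp1 and Crabp2 bind retinoic acid inside the cell, and Crabp2 is known for handing it to its nuclear receptors. In development the meninges, the connective tissue layers around brain and cord, are a known source of retinoic acid.

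Promoter sequences are printed for the 3 members on which the results turn: Aldh1a2 and Cyp1b1, which were higher in EAE across fibroblast-like cells, and Rbp4, which changed in opposite directions in different classes. Each is the stretch of 250 bases that ends just before a RefSeq transcription start (build GRCm38.p6), written 5′ to 3′ on the gene's strand, with each CG dinucleotide in capitals.
Aldh1a2, chr9:71215539-71215788, plus strand: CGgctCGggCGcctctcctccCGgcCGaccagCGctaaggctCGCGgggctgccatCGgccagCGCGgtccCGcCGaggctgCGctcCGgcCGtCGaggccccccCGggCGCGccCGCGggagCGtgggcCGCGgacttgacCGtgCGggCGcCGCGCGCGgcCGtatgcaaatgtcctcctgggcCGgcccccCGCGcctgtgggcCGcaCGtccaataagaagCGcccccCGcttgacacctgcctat
Cyp1b1, chr17:79715062-79715311, minus strand: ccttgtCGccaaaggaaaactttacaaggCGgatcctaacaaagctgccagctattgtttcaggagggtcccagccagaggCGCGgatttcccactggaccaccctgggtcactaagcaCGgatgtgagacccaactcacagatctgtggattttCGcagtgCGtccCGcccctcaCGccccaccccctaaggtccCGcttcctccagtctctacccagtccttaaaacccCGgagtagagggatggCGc
Rbp4, chr19:38125322-38125571, minus strand: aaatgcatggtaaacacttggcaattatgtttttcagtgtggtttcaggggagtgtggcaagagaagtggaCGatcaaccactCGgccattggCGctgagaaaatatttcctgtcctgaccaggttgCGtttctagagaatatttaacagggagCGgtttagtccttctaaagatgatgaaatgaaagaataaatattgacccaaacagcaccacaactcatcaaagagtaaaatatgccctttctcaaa
The Aldh1a2 stretch held 40 CG dinucleotides, the Cyp1b1 stretch 12 and this Rbp4 stretch 5, against a median of 6 over 32851 RefSeq promoters of the same length. Only 1.31% of those promoters held 40 or more. Searched on both strands, none of the 3 stretches held AGGTCA (the half-site of retinoic acid receptors, found in 14% of the promoters), TNGCGTG (the core of the site of the aryl hydrocarbon receptor, 4.1%) or TATAAA (12.4%). A second listed Rbp4 start, inside the annotated gene, had TATAAA beginning 28 bases before it. The stretch before that start held 28 CG dinucleotides, so the CG count of Rbp4 depends on the start taken. Promoters were matched for 6 of the 9 members.

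Of 6904 barcodes that passed the filters, 4678 remained when a barcode found in more than 1 of Healthy 1, Healthy 2 and EAE 1 was kept only in the library with its highest UMI total. Counted over the barcodes as deposited, before the filters, such copies were 1549 in Healthy 1, 684 in Healthy 2 and 2 in EAE 1, and libraries of different batches then shared 0 to 3 barcodes. Healthy 1 stood apart in depth, with a median of 1213 UMIs per cell against 3195 to 5028 in the other libraries. Cells were gated by marker genes that include no member. A cell needed 2 markers of a list, which gave 8 fibroblast classes named here by a pair of their gate genes, 92 pericyte-like and 112 smooth-muscle-like cells (mural cells, which wrap vessels), and 1004 ungated fibroblasts with general fibroblast markers only. Between 8.55% and 31.7% of the cells of a fibroblast class lay near the boundary to another gate, so the classes are ranges of marker scores. The Inmt/Cldn1 class rests on those 2 genes, since the third marker, Cdh1, had a UMI in 1 cell. In all there were 4098 fibroblast-like cells, 656, 375 and 347 from Healthy 1 to 3 and 1592 and 1128 from EAE 1 and EAE 2. General fibroblast markers made up 27228 to 43812 CPM (UMIs per 1000000 UMIs of the summed cells) of the all fibroblast-like sums, and none of the 6 was at 0.

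The classes were not evenly spread over the states. The Gfra1/Osr2 class had 86, 119 and 145 cells from Healthy 1, 2 and 3 against 33 and 50 from EAE 1 and 2, and the Clec3b/Fmod class had 129, 55 and 89 against 80 and 35. The Itih5/Hsd11b1 class had 78, 32 and 48 against 72 and 117. Only these 3 classes and the ungated fibroblasts had at least 20 cells in every library. The Igfbp3/Wnt4, Inmt/Cldn1, Lcn2/Saa3, Tnc/Cxcl9 and Lsp1/Npy1r classes reached 20 cells in the EAE libraries alone, so nothing can be said of their change between states.

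The first comparison asked which members differed between the states over all fibroblast-like cells. Rdh10, Aldh1a2, Cyp1b1 and Stra6 were higher in EAE, by 1.85 to 2.52 on the log2 scale, and no member was lower. Aldh1a1, Aldh1a3, Rbp4 and Crabp2 did not pass, and Crabp1 was too rare to test. Of all 9894 genes tested, 10.3% were higher and 10.6% lower at an edgeR adjusted p under 0.05, beside which stand 4 higher of the 8 members tested. The median log2 fold change was 1.28 over these 8 members and 0.01 over all genes tested. In sums over cells, a different mix of classes and a change within cells cannot be told apart.

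**Figure D1:**
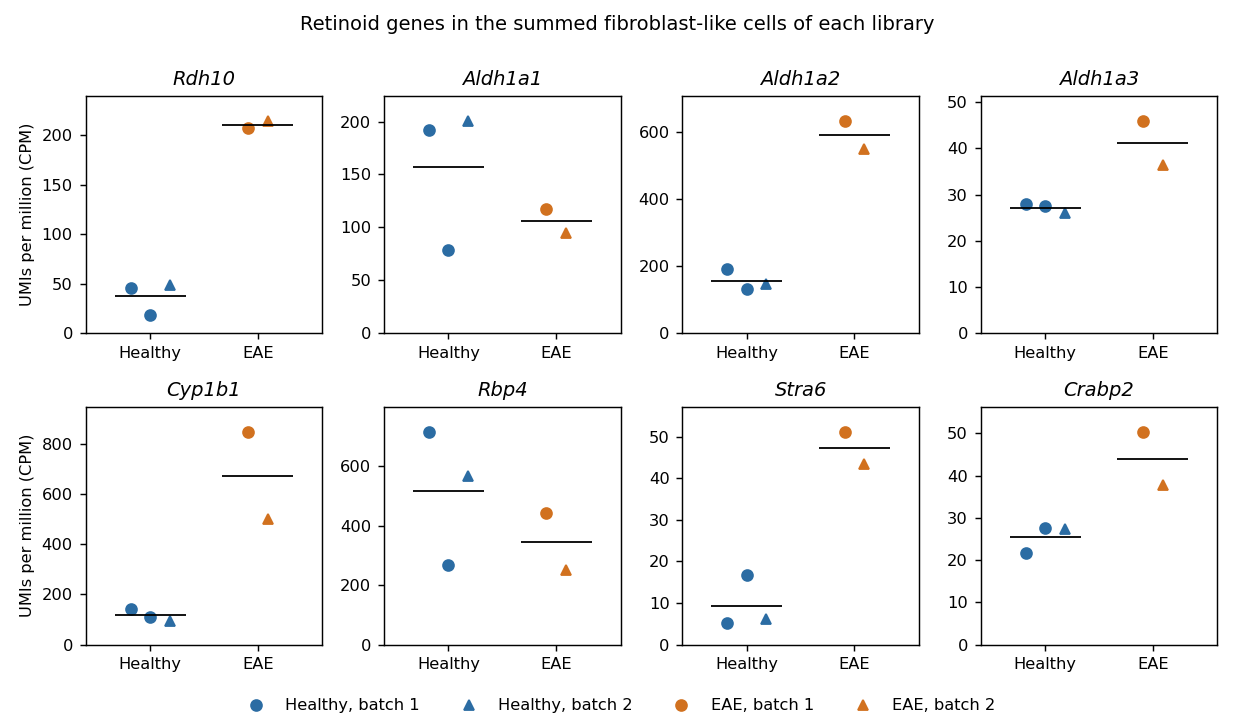
CPM of 8 members in the summed fibroblast-like cells of each library, 1 point per library and a line at the mean of each state (Healthy, 3 libraries, and EAE, 2 libraries). Rdh10, Aldh1a2, Cyp1b1 and Stra6 have both EAE points far above the 3 Healthy points, while those of Aldh1a1 and Rbp4 overlap.

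Rdh10, which supplies retinal for retinoic acid synthesis, stood at 45.4, 18.3 and 48.4 CPM in Healthy 1 to 3 and at 207 and 214 CPM in EAE 1 and EAE 2. The EAE libraries lay close together and above every Healthy library, and the log2 fold change was 2.39 (SE 0.30, edgeR adjusted p = 4.2e-04). Aldh1a2, the main retinoic acid-making enzyme of embryonic mesoderm, had 193, 131 and 147 CPM in Healthy and 633 and 551 CPM in EAE. Again no EAE value overlapped a Healthy value, and the gene rose by 1.85 on the log2 scale (SE 0.21, edgeR adjusted p = 6.6e-05). Cyp1b1 had 142, 111 and 93.4 CPM in Healthy and 845 and 498 CPM in EAE (log2 fold change 2.52, SE 0.20, edgeR adjusted p = 7.2e-06). The lower of the EAE libraries was still above the highest Healthy library by more than the spread within either state.

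Stra6, the retinol carrier's receptor, was a low gene in health. It had 5, 20 and 9 UMIs in the 3 Healthy sums (5.16, 16.7 and 6.14 CPM) and 422 and 292 UMIs in EAE (51.1 and 43.4 CPM). The log2 fold change was 2.30 (SE 0.35, edgeR adjusted p = 7.5e-04), with Healthy 2 the highest of the Healthy libraries and still well below EAE. Within the first batch the log2 ratio of EAE 1 to the mean of the Healthy libraries was 2.23 for Stra6, 2.70 for Rdh10, 1.97 for Aldh1a2 and 2.74 for Cyp1b1, and within the second batch it was 2.82, 2.15, 1.90 and 2.42. The 4 genes thus had the same direction and a like size in both batches.

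The other members tested moved less or not evenly. Rbp4 had 714, 267 and 566 CPM in Healthy and 442 and 249 CPM in EAE (log2 fold change -0.66, SE 0.51, edgeR adjusted p = 0.451). Aldh1a1, a dehydrogenase also known for clearing aldehydes, had 192, 79.1 and 200.5 CPM in Healthy and 118 and 94.4 CPM in EAE (log2 fold change -0.66, SE 0.38, edgeR adjusted p = 0.295). Healthy 2 was the low Healthy library for both. Without Healthy 2 both passed as lower in EAE, by -0.99 for Rbp4 (edgeR adjusted p = 0.00407) and -0.95 for Aldh1a1 (edgeR adjusted p = 0.00903), so this library decides those calls. Crabp2 had 21.7, 27.5 and 27.3 CPM in Healthy and 50.3 and 37.8 CPM in EAE, with groups that did not overlap but an edgeR adjusted p = 0.0511 (log2 fold change 0.70, SE 0.23). Aldh1a3 had 27.9, 27.5 and 25.9 CPM in Healthy and 45.9 and 36.4 CPM in EAE (log2 fold change 0.54, SE 0.22, edgeR adjusted p = 0.1). Crabp1 had 1 UMI in EAE 1 and 1 in EAE 2 and none in the Healthy libraries, so these cells gave no measurable Crabp1.

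For Cyp1b1 and Aldh1a2 the share of fibroblast-like cells with a UMI was also higher in EAE, although it depends on depth. Healthy 1, 2 and 3 had Cyp1b1 in 16.9%, 26.7% and 26.8% of these cells, and EAE 1 and EAE 2 in 82.0% and 67.9%. For Aldh1a2 the shares were 16.3%, 20.8% and 26.8% against 73.1% and 68.3%. With each cell thinned to 1000 UMIs, which left 397, 354 and 339 Healthy and 1592 and 1085 EAE cells, Cyp1b1 was found in 14.6%, 9.32% and 8.55% of Healthy and 46.7% and 32.5% of EAE cells. The Healthy and EAE shares still did not overlap at this equal depth. In immune-like cells of EAE 1 and EAE 2 the shares for this gene were 8% and 24.3%, and 4.8% and 18.2% when thinned. What these immune-like shares reflect was not tested. For Rbp4, whose CPM did not rise in EAE, the shares were 20.4%, 13.9% and 20.5% in Healthy against 49.0% and 36.2% in EAE. Thinned, the Rbp4 shares were 21.2%, 8.76% and 12.1% against 22.7% and 15.7%, so the groups overlapped.

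The next comparison asked how the members divide over the fibroblast classes. Shares of UMIs and of cells are given among the fibroblast-like and mural-like cells of a library. In healthy cord the Clec3b/Fmod class held 61.7% to 72.0% of these Rbp4 UMIs but 13.4% to 24.2% of the cells. It also held 31.8% to 53.1% of Aldh1a1, 30.4% to 44.4% of Aldh1a2 and 30.3% to 47.5% of Crabp2 UMIs. Of the Healthy Aldh1a3 UMIs the Clec3b/Fmod class held 3.70% to 17.6% and the Gfra1/Osr2 class, 12.4% to 39.4% of the cells, 35.3% to 51.3%. The Aldh1a3 level in the Gfra1/Osr2 class, 37.3 ± 17.4 CPM (SD, n = 3), overlapped that in ungated fibroblasts (34.8 ± 13.3 CPM) and in the Itih5/Hsd11b1 class (30.9 ± 20.7 CPM). The few Healthy cells of the Igfbp3/Wnt4 class, 1.46% to 2.17% of the cells, held 15.2% to 19.0% of Aldh1a2 and 6.02% to 16.0% of Rbp4 UMIs.

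In EAE other classes held larger shares than the Clec3b/Fmod class, again among fibroblast-like and mural-like cells. The Igfbp3/Wnt4 class was 8.90% to 12.03% of these EAE cells. It held 21.1% to 26.4% of Rbp4, 26.6% to 27.7% of Aldh1a1, 15.7% to 22.9% of Aldh1a2 and 22.8% to 36.8% of Crabp2 UMIs. The Lcn2/Saa3 class, 11.5% to 29.7% of cells, held 20.3% to 36.0% of Rbp4 and 11.5% to 34.3% of Aldh1a2 UMIs. The Clec3b/Fmod class was 3.00% to 4.81% of these EAE cells and held 4.52% to 6.78% of Rbp4 UMIs. The sort, the dissociation and the number of cells loaded set these shares together with the tissue.

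**Figure D2:**
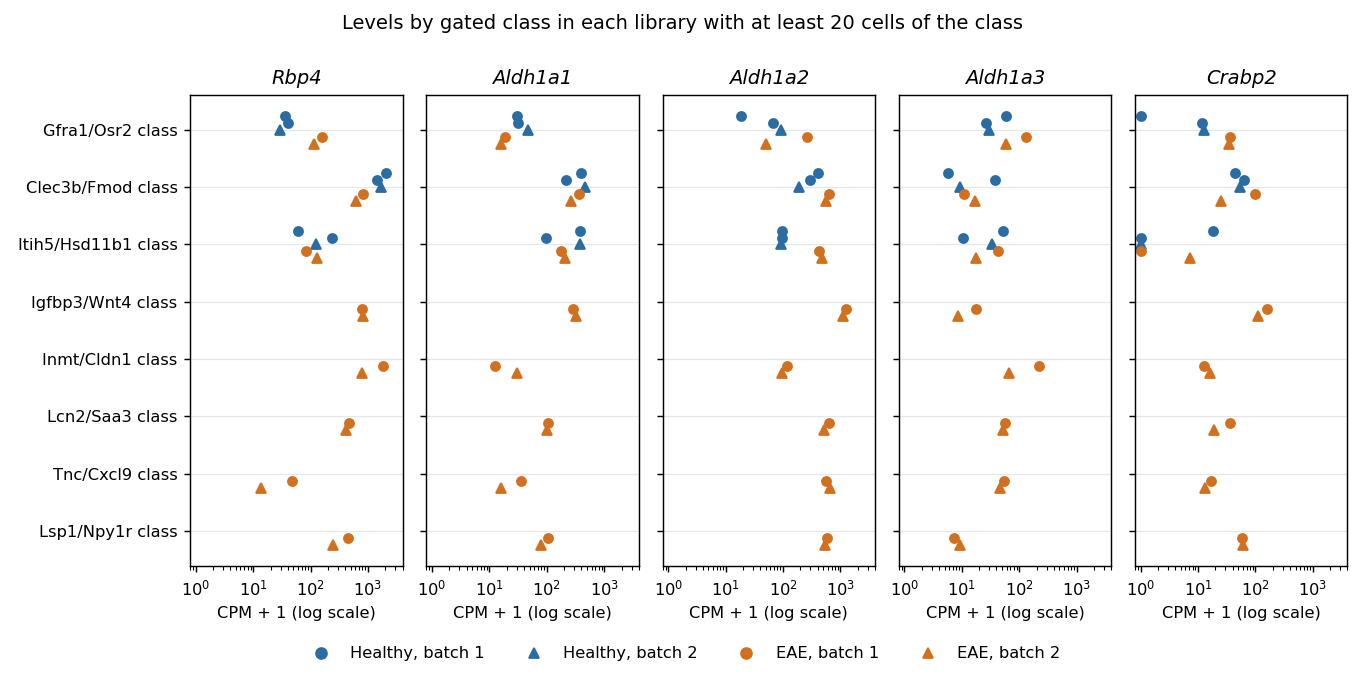
CPM + 1 (log scale) of Rbp4, Aldh1a1, Aldh1a2, Aldh1a3 and Crabp2 by gated class, with 1 point for each library that had at least 20 cells of the class. In the Clec3b/Fmod class the Healthy points of Rbp4 lie above the EAE points, and in the Gfra1/Osr2 class below them. The lower 5 classes have EAE points only.

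Each class was then tested against the other fibroblast-like cells of the same libraries, with library as a block. The Clec3b/Fmod class was higher for Aldh1a1 (log2 difference 1.66, SE 0.14, edgeR adjusted p = 8.9e-07) and Crabp2 (0.94, SE 0.27, edgeR adjusted p = 0.0485) and lower for Aldh1a3 (-1.50, SE 0.40, edgeR adjusted p = 0.0352). That is 3 of 8 members, where 5.33% of all genes were called in either direction. Its Aldh1a1 level was 394, 215 and 459 CPM in Healthy and 364 and 267 CPM in EAE, against 28.7, 30.1 and 46.0 CPM and 17.5 and 14.6 CPM in the Gfra1/Osr2 class. No library of the Gfra1/Osr2 class came near the lowest library of the Clec3b/Fmod class. Rbp4 was the most class-bound member by level but did not pass in the Clec3b/Fmod class (2.27, SE 0.56, edgeR adjusted p = 0.139), where it stood at 2034, 1411 and 1685 CPM in Healthy and 820 and 614 CPM in EAE. In each of the 5 libraries this was above the level over all fibroblast-like cells. The Crabp2 and Aldh1a3 calls of this class each ended without Healthy 1, without EAE 1 or without Healthy 3, with edgeR adjusted p from 0.137 to 0.199. Without Healthy 2 the Crabp2 call ended (0.156), and without EAE 2 the Aldh1a3 call (0.0645). In DESeq2 and with a stricter gate neither passed (adjusted p from 0.1 to 0.117), nor did Crabp2 with all barcodes as deposited, with cells of at least 1000 UMIs or after thinning each cell to 1000 UMIs (0.65 to 1.01), nor Aldh1a3 with classes taken from clusters (-0.54).

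The Gfra1/Osr2 class was low in several retinoid genes. It was lower for Aldh1a1 (-2.52, SE 0.23), Aldh1a2 (-1.80, SE 0.34), Crabp2 (-1.22, SE 0.36) and Rdh10 (-1.18, SE 0.30) and higher for Aldh1a3 (0.86, SE 0.27, edgeR adjusted p = 0.0491), against 9.07% of genes called. Rbp4 was lower by 3.09 on the log2 scale without passing (edgeR adjusted p = 0.0524), and it passed without Healthy 1, Healthy 3, EAE 1 or EAE 2, at -2.47 to -3.69. The Aldh1a3 call ended in 10 of the 12 alternatives that could be fitted, among them without any of those 4 libraries (0.64 to 0.99). Crabp2 did not pass without any of the 3 Healthy libraries or without EAE 1 (-0.98 to -1.36), nor Rdh10 without Healthy 2, Healthy 3 or EAE 2 (-1.09 to -1.15). The Crabp2 call also ended in DESeq2 (-1.22) and with a stricter gate (-1.12), and the Rdh10 call with all barcodes as deposited (-1.65). The calls for Aldh1a1 and Aldh1a2 held in all 13 alternatives that could be fitted.

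The Itih5/Hsd11b1 class combined more Aldh1a1 with less Crabp2. It was higher for Aldh1a1 (0.92, SE 0.14, edgeR adjusted p = 7.3e-06) and lower for Crabp2 (-3.22, SE 0.45, edgeR adjusted p = 1.2e-06) and Aldh1a2 (-0.62, SE 0.15, edgeR adjusted p = 0.00602), with 3.62% of genes called. Crabp2 had 2 UMIs in Healthy 1, 4 in EAE 2 and none in the other 3 libraries of the class. Without EAE 1 the Aldh1a2 call ended (-0.59, edgeR adjusted p = 0.0516).

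**Figure D3:**
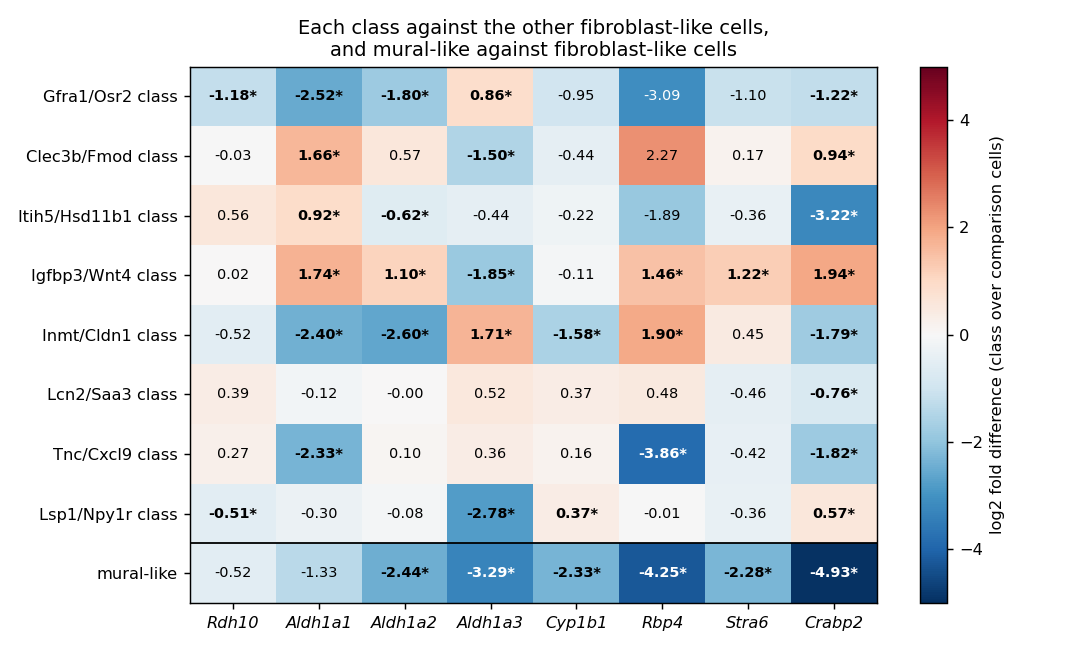
Log2 difference of each class from the other fibroblast-like cells of the same libraries, and of mural-like from fibroblast-like cells, for 8 members (columns). Bold values with a star passed an edgeR adjusted p under 0.05, red is higher and blue lower in the class. Rbp4, Aldh1a1, Aldh1a3 and Crabp2 differ in both directions between classes, while Rdh10 and Stra6 stay near 0 in most.

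Among the classes that reached 20 cells in the EAE libraries alone, 2 were higher for Rbp4. The Igfbp3/Wnt4 class was higher for Crabp2 (1.94, SE 0.16), Aldh1a1 (1.74, SE 0.14), Rbp4 (1.46, SE 0.26, edgeR adjusted p = 0.0302), Stra6 (1.22, SE 0.16) and Aldh1a2 (1.10, SE 0.11). Only Aldh1a3 was lower (-1.85, SE 0.28). Aldh1a2 reached 1236 and 1094 CPM there in EAE 1 and EAE 2, the highest of any class in either EAE library. The call of 6 of 8 members stands beside 8.06% of genes called. For Rbp4 it ended in DESeq2 (1.49, adjusted p = 0.126) and with library totals (1.51, edgeR adjusted p = 0.0606). After thinning, the calls ended for Aldh1a3 (edgeR adjusted p = 0.0784), Stra6 (1.21, edgeR adjusted p = 0.25) and Crabp2 (1.53, edgeR adjusted p = 0.0578).

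The Inmt/Cldn1 class was higher for Rbp4 (1.90, SE 0.18, edgeR adjusted p = 1.5e-23) and Aldh1a3 (1.71, SE 0.28, edgeR adjusted p = 7.2e-08). It was lower for Aldh1a2 (-2.60, SE 0.24), Aldh1a1 (-2.40, SE 0.41), Crabp2 (-1.79, SE 0.55) and Cyp1b1 (-1.58, SE 0.21), with 8.11% of genes called. The gate markers follow class names chosen with earlier results of these data known, and the name of this class included Aldh1a3. Its Aldh1a3 call is therefore not independent of that choice. Rbp4 stood at 1856 and 786 CPM in this class and Aldh1a3 at 217 and 64.2 CPM, so EAE 1 was well above EAE 2 for both. The test had only EAE 1 and EAE 2, and edgeR estimates spread with help from all genes. The small p-values thus do not measure agreement between these libraries. With classes taken from clusters instead of gates, Crabp2 turned to 0.77 in the Inmt/Cldn1 class, and the calls ended for Rbp4 (0.44, edgeR adjusted p = 0.885), Aldh1a3 (2.35, edgeR adjusted p = 0.382) and Aldh1a2 (-1.86, edgeR adjusted p = 0.433). Those clusters, of 447 and 104 cells, were a wider set than the gate. They held 74 of the 91 gated cells, but also 220 ungated fibroblasts and 119 cells of the Lcn2/Saa3 gate. The Crabp2 call also ended in DESeq2 (-1.76, adjusted p = 0.383) and with a stricter gate (-1.76, edgeR adjusted p = 0.0662).

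In the 3 remaining classes of this kind fewer members were called. The Tnc/Cxcl9 class was lower for Rbp4 (-3.86, SE 0.24, edgeR adjusted p = 3.8e-05), Aldh1a1 (-2.33, SE 0.23) and Crabp2 (-1.82, SE 0.21), where 10.2% of genes were lower. The Aldh1a1 call ended after thinning (-1.94, edgeR adjusted p = 0.241). Its Rbp4 level of 46.4 and 12.8 CPM compares with 45.9 and 50.5 CPM in immune-like cells of the same libraries. It was thus close to theirs in EAE 1 and below theirs in EAE 2. The same class kept Aldh1a2 at 549 and 660.5 CPM, which did not differ from the other fibroblast-like cells beyond the test (0.10, SE 0.17). The Lsp1/Npy1r class was lower for Aldh1a3 (-2.78, SE 0.23) and Rdh10 (-0.51, SE 0.10) and higher for Crabp2 (0.57, SE 0.15) and Cyp1b1 (0.37, SE 0.10), with 6.31% of genes called. Of these, Rdh10 did not pass in DESeq2 (-0.51, adjusted p = 0.099), with all barcodes as deposited (-0.42) or after thinning (-0.35), and Crabp2 did not pass in DESeq2 (0.59, adjusted p = 0.542). Nor did Cyp1b1 with all barcodes as deposited (0.47), after thinning (0.14, edgeR adjusted p = 0.948) or with clusters (0.24), or Aldh1a3 after thinning (-3.09, edgeR adjusted p = 0.199). The Lcn2/Saa3 class, the largest gated class in EAE 1, was lower for Crabp2 alone (-0.76, SE 0.18, edgeR adjusted p = 0.0205), with 0.669% of genes lower. That call ended in DESeq2 (-0.84, adjusted p = 0.999), with all barcodes as deposited (-0.47, edgeR adjusted p = 0.813), after thinning (-0.28, edgeR adjusted p = 0.997) and with clusters (-0.43, edgeR adjusted p = 0.452). For Crabp2 the direction in the Lsp1/Npy1r class turned to -0.28 with a stricter gate, and thinning each cell to 1000 UMIs gave 0.05 in the Tnc/Cxcl9 class, so these are unstable.

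The third comparison asked whether members changed between the states within a class. The direction was not shared: Rbp4 fell in the Clec3b/Fmod class and rose in the Gfra1/Osr2 class, while Aldh1a2, Cyp1b1 and Rdh10 had positive values in all 3 classes and in ungated fibroblasts. In the Clec3b/Fmod class Rbp4 went from 2034, 1411 and 1685 CPM in Healthy to 820 and 614 CPM in EAE, with no overlap (log2 fold change -1.26, SE 0.25, edgeR adjusted p = 0.0264). In the Gfra1/Osr2 class it went from 34.4, 38.7 and 28.7 CPM (6, 18 and 20 UMIs) to 158 and 112 CPM (18 and 23 UMIs), again with no overlap (2.03, SE 0.35, edgeR adjusted p = 0.00338). Of all genes tested, 1.23% were called in either direction in the former class and 1.31% were higher in the latter. The gap in Rbp4 between these classes was thus much wider in health than in EAE, although the Clec3b/Fmod class stayed the higher in every library.

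The difference between the state effects was tested itself, after these opposite calls had been seen. The Rbp4 effect in the Gfra1/Osr2 class exceeded that in the Clec3b/Fmod class by 3.23 on the log2 scale (SE 0.35, edgeR adjusted p = 6.6e-07), and that in the Itih5/Hsd11b1 class by 2.34 (SE 0.49, edgeR adjusted p = 0.00315). The latter did not pass with clusters (1.58, edgeR adjusted p = 0.394). Of all genes tested, 2.46% and 6.56% differed in these 2 tests. Between the Clec3b/Fmod and Itih5/Hsd11b1 classes 0.729% of genes differed, and edgeR called 0 of 6 members, with 1 at an unadjusted p under 0.05 and 0 called by DESeq2. The Rbp4 difference between the Gfra1/Osr2 and Clec3b/Fmod classes held in all 11 alternatives fitted, from 3.03 to 3.78. The fall in the Clec3b/Fmod class did not pass without EAE 1, Healthy 3 or EAE 2 (-1.14 to -1.46, edgeR adjusted p from 0.149 to 0.301), nor after thinning (-1.17, edgeR adjusted p = 0.0548). In the Gfra1/Osr2 class the rise passed without any single library but not in DESeq2 (2.06, adjusted p = 0.0563) or with clusters (1.84, edgeR adjusted p = 0.14).

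Markers of other classes moved with the state inside both gates. In the Gfra1/Osr2 class the Inmt/Cldn1 gate's 3 markers summed to 103, 90.4 and 56.1 CPM in Healthy and to 439 and 419 CPM in EAE, with Cdh1 at 0 in all. The 3 markers of the Lcn2/Saa3 gate summed there to 28.7, 36.6 and 2.87 CPM against 833 and 1424 CPM. In the Clec3b/Fmod class its own 3 markers summed to 6022, 6694 and 7651 CPM in Healthy and to 3792 and 2433 CPM in EAE, with none at 0. The part of these shifts in the Rbp4 results was not tested.

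**Figure D4:**
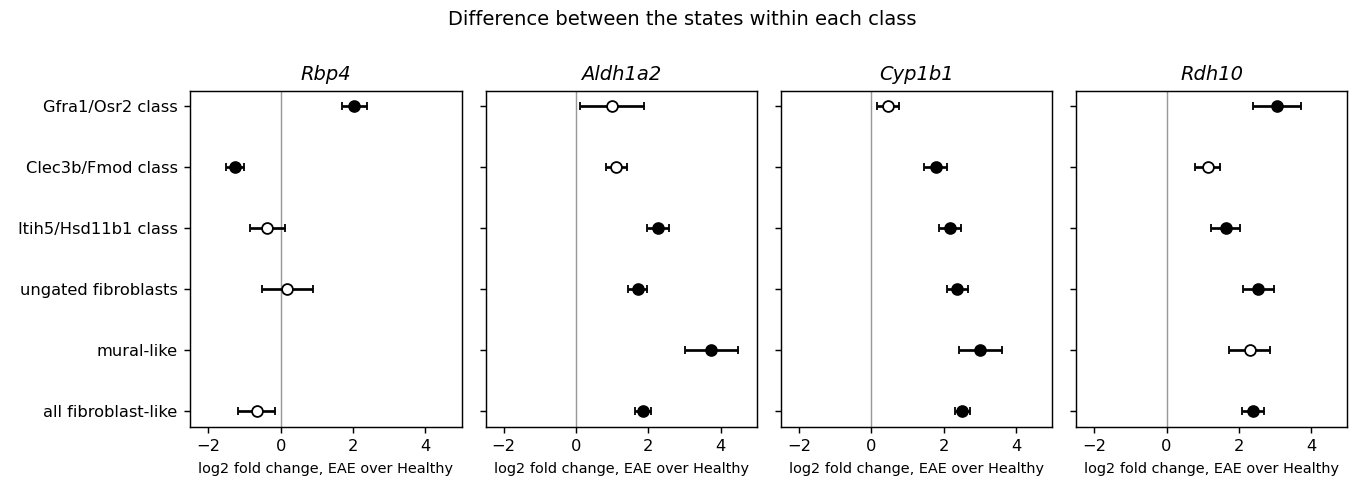
Log2 fold change of EAE over Healthy with its standard error for Rbp4, Aldh1a2, Cyp1b1 and Rdh10 within 3 gated classes, ungated fibroblasts, mural-like cells and all fibroblast-like cells. Filled points passed an edgeR adjusted p under 0.05 and open points did not. Rbp4 lies at 2.03 in the Gfra1/Osr2 class and at -1.26 in the Clec3b/Fmod class, while the other 3 genes lie above 0 throughout.

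In the Itih5/Hsd11b1 class Aldh1a2, Cyp1b1 and Rdh10 rose. Aldh1a2 went from 93.4, 95.5 and 91.2 CPM in Healthy to 415 and 477 CPM in EAE (log2 fold change 2.27, SE 0.30, edgeR adjusted p = 5.5e-04), and Cyp1b1 from 136, 105 and 129 CPM to 694 and 401 CPM (2.17, SE 0.31, edgeR adjusted p = 0.00102). The 3 Healthy libraries were nearly equal for Aldh1a2 and far from both EAE libraries. Rdh10 rose there as well (1.63, SE 0.39, edgeR adjusted p = 0.0225), from 153, 38.2 and 75.1 CPM to 276 and 252 CPM. Of 5 members tested, 3 were higher in this class, where 5.37% of genes were. The Rdh10 call ended without Healthy 3, EAE 1 or EAE 2 (1.54 to 1.74) and the Cyp1b1 call without EAE 1 (1.64, edgeR adjusted p = 0.155). Rdh10 also did not pass in DESeq2 (1.64, adjusted p = 0.0627) or with a stricter gate (1.25, edgeR adjusted p = 0.0541), nor Aldh1a2 after thinning (1.96, edgeR adjusted p = 0.0715). Markers moved with the state inside this gate too: its own 3 summed to 4812, 2885 and 3630 CPM in Healthy against 1609 and 1863 CPM in EAE. The Lcn2/Saa3 markers went from 17.0, 28.7 and 0 CPM, with 2, 1 and all 3 of them at 0, to 2515 and 2284 CPM with none at 0. Those of the Lsp1/Npy1r gate went from 59.4, 66.9 and 80.4 CPM to 298 and 704 CPM, and those of the Clec3b/Fmod gate from 2130, 1987 and 2054 CPM to 564 and 513 CPM. The part of these shifts in the 3 results was not tested.

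In the Clec3b/Fmod class Cyp1b1 rose from 166, 92.0 and 95.8 CPM to 522 and 275 CPM (1.78, SE 0.31, edgeR adjusted p = 0.0123), a call that ended without EAE 1 (1.51, edgeR adjusted p = 0.615) and after thinning (1.56, edgeR adjusted p = 0.0931). Aldh1a2 had 398, 294.5 and 192 CPM in Healthy and 635 and 550 CPM in EAE there without passing (1.11, SE 0.29, edgeR adjusted p = 0.0931), though it passed without Healthy 1 (1.26) or Healthy 2 (1.04), and Rdh10 had a value of 1.14 (SE 0.34, edgeR adjusted p = 0.152). The Clec3b/Fmod and Itih5/Hsd11b1 classes had unequal Healthy levels of Aldh1a2, and their EAE levels were closer to each other. The difference between their state effects did not pass (-1.19, SE 0.32, edgeR adjusted p = 0.0685).

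Cyp1b1 was not called between the states in the Gfra1/Osr2 class. There the gene had 91.8, 110 and 93.4 CPM in Healthy and 149 and 122 CPM in EAE (0.47, SE 0.31, edgeR adjusted p = 0.589). Immune-like cells of EAE 1 and EAE 2 had 100.1 and 253 CPM of Cyp1b1, so the EAE 2 value is below theirs. The state effect on Cyp1b1 there was lower than in the Clec3b/Fmod class without passing (-1.29, SE 0.38, edgeR adjusted p = 0.06). The effect in the Gfra1/Osr2 class differed from that in the Itih5/Hsd11b1 class by -1.65 (SE 0.35, edgeR adjusted p = 0.00325). That difference did not pass without EAE 1 (-1.33) or Healthy 3 (-1.70), at edgeR adjusted p = 0.0504 and 0.0501, nor in DESeq2 (-1.62, adjusted p = 0.0622). Rdh10 rose in the Gfra1/Osr2 class (3.05, SE 0.67, edgeR adjusted p = 0.0394) from 0, 3 and 18 UMIs (0, 6.46 and 25.9 CPM) to 21 and 16 UMIs (184 and 78.0 CPM). Immune-like cells had 20.8 and 137 CPM of Rdh10 in EAE 1 and EAE 2, so the EAE 2 value is below theirs. What the immune-like level reflects was not tested. Without EAE 1 the Rdh10 call ended (1.67). The size also moved to 5.06 without Healthy 3, 5.08 without EAE 2 and 0.62 with clusters.

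Aldh1a2 in the Gfra1/Osr2 class had 17.2, 66.7 and 90.5 CPM in Healthy and 263 and 48.8 CPM in EAE, so the EAE libraries lay on both sides of Healthy 3 (0.99, SE 0.89). It passed without EAE 2 (2.25) and without Healthy 3 (2.27) and stood at -0.80 without EAE 1, so its direction rests on that library. Aldh1a3 had 57.3, 25.8 and 28.7 CPM in Healthy and 132 and 58.5 CPM in EAE there (1.48, SE 0.45, edgeR adjusted p = 0.139) and passed without Healthy 1 (1.63). Ungated fibroblasts were a mix, with 430 of the 1004 in clusters named for the Gfra1/Osr2 class. Those clusters were mostly Healthy (412 of 454 and 417 of 445 cells). A different mix and a change within cells cannot be told apart in these sums. Over ungated fibroblasts Rdh10 (2.53, SE 0.43), Cyp1b1 (2.38, SE 0.29), Stra6 (2.35, SE 0.44) and Aldh1a2 (1.71, SE 0.26) were higher in EAE. That is 4 of 8 members tested, where 3.22% of genes were higher. With all barcodes as deposited none of these 4 passed (0.47 to 1.43), and without EAE 1 neither Stra6 (2.02) nor Rdh10 (1.72) did.

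The fourth comparison set mural-like cells against fibroblast-like cells of the same libraries. Most members were lower in mural-like cells: 6 of the 8 tested passed as lower and none as higher, where 11% of all genes were lower. Rbp4 differed by -4.25 (SE 0.37, edgeR adjusted p = 1.8e-08), with 3, 6 and 0 UMIs in the mural-like cells of Healthy 1 to 3 and 4 in each EAE library. Crabp2 had a single mural-like UMI in all 5 libraries (-4.93, SE 0.78), a fitted value that depends on the prior count. Aldh1a3 (-3.29, SE 0.64), Aldh1a2 (-2.44, SE 0.32), Cyp1b1 (-2.33, SE 0.30) and Stra6 (-2.28, SE 0.56) were also lower. These 6 calls held in every alternative in which the gene was tested.

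The exceptions were Rdh10 and Aldh1a1. Mural-like cells had 0, 30.2 and 42.4 CPM of Rdh10 in Healthy and 117 and 200.3 CPM in EAE, a difference from fibroblast-like cells of -0.52 (SE 0.30, edgeR adjusted p = 0.264). Between states Rdh10 did not pass in mural-like cells (2.30, SE 0.56, edgeR adjusted p = 0.0618) but passed without Healthy 2 (2.68). For Aldh1a1 they had 0, 113 and 138 CPM in Healthy and 44.3 and 12.02 CPM in EAE (-1.33, SE 0.50, edgeR adjusted p = 0.104), which passed as lower without Healthy 2 (-1.89). Healthy 1, with 36 shallow mural-like cells, had no UMI of either gene. Pericyte-like cells of Healthy 2 and Healthy 3 had 223 and 147 CPM of Aldh1a1 (12 and 5 UMIs) and smooth-muscle-like cells 38.2 and 133 CPM (3 and 8 UMIs). Only Healthy 2 and EAE 1 had 10 cells of both kinds, and no member passed the low-count filter there (23.8% of the genes that did were called), so pericytes and smooth muscle could not be compared.

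**Figure D5:**
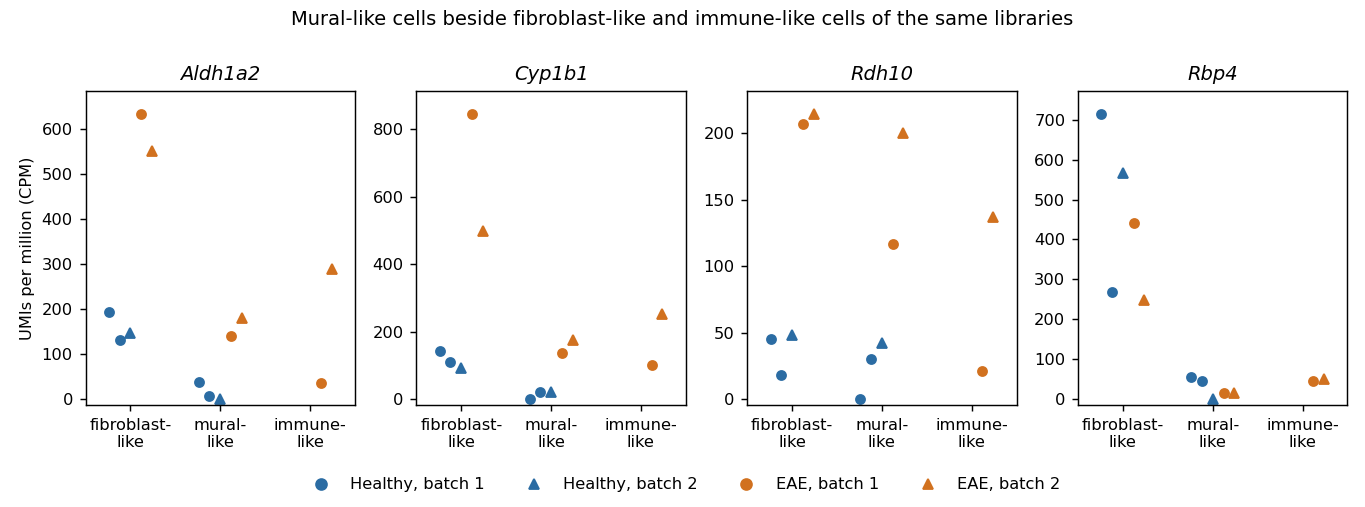
CPM of Aldh1a2, Cyp1b1, Rdh10 and Rbp4 in the summed fibroblast-like, mural-like and immune-like cells, with 1 point for each library that had at least 10 such cells. The mural-like EAE points lie above the Healthy ones for the first 3 genes, and in EAE 2 the immune-like point is above the mural-like point for Aldh1a2 and Cyp1b1.

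Within mural-like cells, Aldh1a2 had 2, 1 and 0 UMIs in Healthy 1 to 3 (37.4, 7.55 and 0 CPM) and 35 and 45 UMIs in EAE (141 and 180 CPM), and Cyp1b1 had 0, 3 and 2 UMIs (0, 22.7 and 21.2 CPM) and 34 and 44 UMIs (137 and 176 CPM). Both passed as higher in EAE (3.74, SE 0.74, edgeR adjusted p = 0.0317, and 3.01, SE 0.59, edgeR adjusted p = 0.0315), where 1.52% of genes were higher. With so few Healthy UMIs the sizes are not firm. Immune-like cells had 35.4 and 289 CPM of Aldh1a2 and 100.1 and 253 CPM of Cyp1b1 in EAE 1 and EAE 2. The mural-like levels of EAE 2 were thus below the immune-like ones, and what the latter reflect was not tested. General fibroblast markers in the mural-like sums also moved, from 2840, 2991 and 2769 CPM in Healthy to 10294 and 11703 CPM in EAE, and their part in the result was not tested. Without EAE 2 neither gene passed (edgeR adjusted p = 0.664 and 0.49). The Aldh1a2 call also ended without Healthy 3 (3.02) and with all barcodes as deposited (2.77), and its size was 7.57 without EAE 1. The Cyp1b1 call ended without EAE 1 (3.00, edgeR adjusted p = 0.281), and in DESeq2 neither passed (adjusted p = 0.09 and 0.143).

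The state effect was not shown to differ between mural-like and fibroblast-like cells. None of 8 members passed the edgeR interaction test, 2 had an unadjusted p under 0.05 (Aldh1a2 at 0.00588 and Aldh1a1 at 0.03), and DESeq2 called 0 of 5. Of all genes tested, 2.49% were called in either direction.

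Detection of pairs of members in the same cell is given as a description. In EAE 1 and EAE 2, Rdh10 had a UMI in 48.8% and 59.0% of fibroblast-like cells with Aldh1a2 and in 36.6% and 35.8% of those without. Crabp2 was found in 18.1% and 10.4% of cells with Aldh1a2 and in 4.20% and 7.54% of those without. Aldh1a3 went the other way, in 10.3% and 7.27% of EAE cells with Aldh1a2 against 15.6% and 15.6% of those without. In Healthy 1, 2 and 3 the Aldh1a3 shares were 2.80%, 7.69% and 10.8% with Aldh1a2 against 3.83%, 7.07% and 8.27% without, so that direction was not shared. For Rdh10, Healthy 3 had 14.0% against 15.7%, unlike the other libraries. These shares depend on the depth of each cell, whose part was not tested.

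Over 35 sums of a class in a library, the genes most like each member by Pearson's r were named as a description, since these sums share libraries and depth. Among the 3 genes most like Cyp1b1 were the collagen genes Col1a2 (0.952) and Col1a1 (0.927), with a gene of another kind ranked between them. Aldh1a1 went with the chemokine gene Cxcl12 (0.885) and the growth factor gene Igf2 (0.852). Rdh10 went with Igsf10 (0.878) and Cdh11 (0.839), and Aldh1a2 with Lsp1 (0.855), a gate marker, and Bicc1 (0.839). For Aldh1a3 these were Gria3 (0.835) and Frzb (0.832), for Rbp4 the connexin gene Gjb2 (0.815) and Glul (0.800), for Stra6 Itgb8 (0.808), and for Crabp2 Sulf2 (0.766).

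Other genes of the pathway came from a list of 58, of which 57 were in the tables and 31 could be tested over all fibroblast-like cells. Of these 7 were higher and 6 lower in EAE, and 18 did not pass, beside 10.3% of all genes higher and 10.6% lower. Cyp26b1, which breaks down retinoic acid, rose most (2.94, SE 0.42, edgeR adjusted p = 0.00102), from only 14, 3 and 7 UMIs in Healthy 1 to 3. Rarres1, a retinoic acid-responsive gene, followed (2.20, SE 0.40, edgeR adjusted p = 0.00184). Cd38, a retinoic acid-responsive ectoenzyme, fell by 2.30 on the log2 scale (SE 0.26) and Adh1, an alcohol dehydrogenase that acts on retinol, fell by 1.31 (SE 0.21). The receptor Rarb (0.84, edgeR adjusted p = 0.0485) was also higher. The list's median of 0.23 stands beside 0.01 over all genes.

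Within classes the same genes were set against the background of calls between states. In the Clec3b/Fmod class (1.23% of genes called in either direction) and the Gfra1/Osr2 class (1.31% higher) edgeR called none of 13 tested, with 3 and 2 at an unadjusted p under 0.05, and DESeq2 called none. In the Itih5/Hsd11b1 class 2 of 13 rose, among them Adh5 (1.38, SE 0.36), and 11 did not pass, where 5.37% of all genes were higher. Between classes, Cyp26b1 was higher in the Lcn2/Saa3 class (1.07, SE 0.14) and the Inmt/Cldn1 class (1.31, SE 0.27). It was lower in the Tnc/Cxcl9 class (-1.27, SE 0.25) and the Itih5/Hsd11b1 class (-1.16, SE 0.30). In mural-like cells Fabp5, a fatty acid-binding protein that also carries retinoic acid, was higher than in fibroblast-like cells (1.79, SE 0.39) and Adh1 lower (-3.38, SE 0.34). Of 29 such genes tested there, 1 was higher, 6 were lower and 22 did not pass, beside 11% of all genes lower.

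In mm10, Aldh1a1 spans 20492715 to 20643465 of chromosome 19 (plus strand) and Rbp4 spans 38116629 to 38125281 (minus). Chromosome 9 carries Aldh1a2 (71215789 to 71296243), Stra6 (58063788 to 58153996) and Crabp1 (54764748 to 54773110), each read from the plus strand. Cyp1b1 lies on chromosome 17 at 79701537 to 79715061 and Aldh1a3 on chromosome 7 at 66390890 to 66427517, both on the minus strand. Crabp2 is on chromosome 3 at 87948666 to 87953376 and Rdh10 on chromosome 1 at 16105774 to 16133734, both plus. GENCODE types each of the 9 as protein-coding. Aldh1a7, a near copy of Aldh1a1, had 9 UMIs in all kept cells; how reads shared by the copies were counted is not given.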

How the data were processed

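The authors deposited a table of UMI counts per gene and cell for each of 5 libraries. Per the labels' protocols these are 10x droplet libraries of sorted spinal cord cells, and the tools named, per the submitters' processing notes, are Cell Ranger 2.1.1 and Seurat 3, with build mm10. Kept barcodes had 200 or more genes and no more than 10% of counts from mitochondrial genes. A barcode found in more than 1 of Healthy 1, Healthy 2 and EAE 1 was counted only where its UMI total was highest. A cell with at least 2 markers of a list went to the list with the highest mean scaled score; this rule was chosen after seeing the data. No doublet caller was run and doublets were not removed. Batches were split by whether the labels give a sequencing lane (Healthy 1, Healthy 2 and EAE 1, against Healthy 3 and EAE 2). The split also runs along the gene lists. Healthy 1, Healthy 2 and EAE 1 list 28692 genes each, while Healthy 3 and EAE 2 list 27998.

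Counts were summed per library and class (at least 20 cells, 10 for mural-like cells) and tested with the edgeR 4.0.16 quasi-likelihood test (R 4.3.3, limma 3.58.1) with TMM scaling and its filter on low counts. The state comparison had batch as a term and class comparisons had library. Benjamini-Hochberg adjustment ran over all genes tested, with a threshold of 0.05, and fits were tested on simulated data. Alternatives were DESeq2 1.42.0, library totals, no filter, no batch term, all barcodes, at least 1000 UMIs, a stricter gate, thinning, Leiden clusters (scanpy 1.11.5, leidenalg 0.10.2) and leaving out each library. Libraries held 1053425 to 10151678 UMIs in kept cells. Intervals and limits from counts cover counting error only. Members and lists were chosen with earlier results of these data known. All 9 members are named, with other pathway genes by size of change among those that passed, and the tests of pairs of classes were added after seeing the data. The values of 1 other pathway gene are not reported here.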

Additional observations from a re-analysis of the deposited data

Results flagged for a closer look

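The state effect differed between fibroblast classes for 2 members, each by a test of the difference itself in edgeR. For Rbp4, EAE over Healthy in the Gfra1/Osr2 class exceeded that in the Clec3b/Fmod class by 3.23 on the log2 scale (SE 0.35, adjusted p = 6.6e-07, 2.46% of genes called) and that in the Itih5/Hsd11b1 class by 2.34 (SE 0.49, adjusted p = 0.00315, 6.56% of genes called). The latter did not pass with classes taken from clusters (1.58, adjusted p = 0.394). For Cyp1b1, the difference between the Gfra1/Osr2 and Itih5/Hsd11b1 classes was -1.65 (SE 0.35, adjusted p = 0.00325). It did not pass in DESeq2 (-1.62, adjusted p = 0.0622), without EAE 1 (-1.33, edgeR adjusted p = 0.0504) or without Healthy 3 (-1.70, edgeR adjusted p = 0.0501). Between the Clec3b/Fmod and Itih5/Hsd11b1 classes edgeR called 0 of 6 members, with 1 at an unadjusted p under 0.05, and DESeq2 called 0 (0.729% of genes called by edgeR).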

How the results depend on the processing

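The 4 state calls over all fibroblast-like cells held in all 14 alternatives, with 4 to 6 members called when single libraries were left out, and the 6 mural calls gave 6 to 7. The 9 calls of state within a gated class (7 in the 3 fibroblast classes and 2 in mural-like cells) became 5 in DESeq2, 5 with a stricter gate, 2 after thinning and 4 with clusters, and 3 to 11 without single libraries. Fewer members were tested there with a stricter gate (18 in place of 20), clusters (13) and thinning (8). The 31 calls of class against other fibroblast-like cells became 13 after thinning, where 48 in place of 64 values could be tested, and 7 to 28 without single libraries. Without EAE 1 (7) or EAE 2 (9), 3 of the 8 classes could be fitted, since the other 5 had at least 20 cells in the EAE libraries alone. The interaction of mural cells with state went from 0 to 2 calls with all barcodes as deposited. The direction turned for Crabp2 between states in ungated fibroblasts with a stricter gate (0.95), in the Inmt/Cldn1 class with clusters (0.77), in the Tnc/Cxcl9 class after thinning (0.05) and in the Lsp1/Npy1r class with a stricter gate (-0.28), after thinning (-0.03) and with clusters (-0.04). With clusters it also turned for Aldh1a3 in the Lcn2/Saa3 class (-3.37) and for Aldh1a1 (0.67) and Rbp4 (0.82) in the Lsp1/Npy1r class. The cause was not tested. Over all genes the 1020 higher and 1051 lower became 614 and 686 in DESeq2, 1659 and 1128 without the filter, 671 and 753 without a batch term, 644 and 839 as deposited, 463 and 433 after thinning, and 395 and 373 without EAE 1. Library totals gave 1262 and 895, with a median shift of 0.10. No paired analysis was possible because the Healthy and EAE libraries share only the number 2 in the labels, too few for a block of replicate numbers; the batch was a term of the state fit. Shallow Healthy sums limit Stra6, Crabp2 and all mural values.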
